A study of Mus musculus with 54 samples.

Results

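Genes that mark hepatocytes around the central vein of the liver lobule were followed by their symbols through 54 mouse liver RNA libraries: Glul, Oat, Cyp2e1, Cyp1a2, Axin2, Lgr5, Slc1a2, Rhbg and Tbx3. They make up 9 of the 18079 genes in the table, all 9 were detected in every library, and all 9 passed the filter on low values. The livers came from 3 genotypes of female C57BL/6J mice aged 8 to 12 weeks, fed chow freely in a light and dark cycle. Liver-RE mice carry the BMAL1-stop-FL allele with BMAL1, the core circadian clock activator encoded by Arntl, restored in the liver. KO mice are labelled as BMAL1 knockouts, and WT mice are wild type. The driver that restores BMAL1 is not given in the sources used here, so the labels do not say which liver cells of Liver-RE mice regained it. Livers were taken at ZT0, 4, 8, 12, 16 and 20, the hours after lights on, from 3 mice per genotype and time, which gives 18 libraries per genotype.

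Endothelial cells of the central vein release Wnt ligands and R-spondin 3. These hold beta-catenin active in the hepatocytes nearest the vein and switch on a pericentral programme there. The programme includes the capture of leftover ammonia into glutamine and a set of cytochrome P450 enzymes, while hepatocytes nearer the portal vein make urea. Among the 9 genes, Glul encodes glutamine synthetase, Oat the mitochondrial ornithine aminotransferase that leads ornithine towards glutamate, Slc1a2 a glutamate transporter and Rhbg an ammonia transporter of the Rhesus family. Cyp2e1 and Cyp1a2 encode P450 enzymes that oxidise ethanol and caffeine, among other substrates. Axin2 is a negative feedback target of beta-catenin, Lgr5 encodes a receptor for R-spondins, and Tbx3 encodes a T-box transcription factor. In whole liver, fewer pericentral cells and less RNA per pericentral cell cannot be told apart, and the position of an RNA in the lobule was not measured.

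The deposited values, taken as FPKM (fragments per kilobase of transcript and mega read), rest on about 30.5 ± 4.42 M reads (mega reads) per library in Liver-RE, 30.6 ± 3.63 M in KO and 32.2 ± 3.61 M in WT (SD, n = 18 each), as estimated from the smallest steps of the values. Arntl lay between 0.894 and 10.7 FPKM in Liver-RE, 6.26 and 8.74 FPKM in KO and 0.350 and 12.1 FPKM in WT, so its level did not check the KO label. Its clock target Ciart did not exceed 0.333 FPKM in KO, against up to 4.19 FPKM in Liver-RE and 5.94 FPKM in WT. Clock genes set 2 libraries, called out-of-phase below, apart from their group. WT replicate 2 at ZT8 had 10.6 FPKM of Arntl, against 0.414 and 0.563 FPKM in the other libraries of that group. Liver-RE replicate 1 at ZT20 had 3.21 FPKM of Ciart, against 0.146 and 0.136 FPKM. This set is not complete. WT replicate 1 at ZT20 had 3.76 FPKM of Ciart, against 0.378 and 0.881 FPKM, and was not put in it. Liver-RE replicate 3 at ZT0 had 1.91 FPKM of Arntl, against 10.6 and 7.75 FPKM, and was also not put in it. Glul itself set 3 libraries apart, more than 1 log2 unit below the mean of their group: KO replicate 1 at ZT0, WT replicate 1 at ZT0 and WT replicate 1 at ZT16. Results that change without these 3 libraries or without the 2 out-of-phase libraries are given both ways.

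The promoters of 6 of the 9 genes were matched in RefSeq on GRCm38.p6 (Glul, Oat, Cyp2e1, Cyp1a2, Axin2 and Slc1a2). Beta-catenin reaches DNA through TCF factors, whose core site is often CTTTGA or CTTTGT, and BMAL1 with its partner CLOCK binds E-boxes such as CACGTG. In windows of 250 bases before to 50 bases after the start, searched on both strands, 3 of the 6 held a TCF core: Slc1a2, Cyp2e1 and Cyp1a2. Of all 32851 such windows 31.2% held CTTTGA or CTTTGT, with 16.0% for CTTTGA and 18.7% for CTTTGT, while CACGTG was in 7.15% and in none of the 6 windows. In the windows shown no match overlaps another. The sequences with a match are shown because Slc1a2 and Cyp2e1 carry several of the differences below. Each is the 250 bases before the start, 5′ to 3′ on the gene's strand, with TCF cores in capitals, TCAAAG being CTTTGA read on the other strand.
Slc1a2, chr2:102706188-102706437, plus strand: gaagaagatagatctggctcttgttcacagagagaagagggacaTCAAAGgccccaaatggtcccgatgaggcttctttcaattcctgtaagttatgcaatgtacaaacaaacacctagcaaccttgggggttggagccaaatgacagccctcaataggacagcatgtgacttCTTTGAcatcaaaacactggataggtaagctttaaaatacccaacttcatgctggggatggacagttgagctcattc
Cyp2e1, chr7:140763569-140763818, plus strand: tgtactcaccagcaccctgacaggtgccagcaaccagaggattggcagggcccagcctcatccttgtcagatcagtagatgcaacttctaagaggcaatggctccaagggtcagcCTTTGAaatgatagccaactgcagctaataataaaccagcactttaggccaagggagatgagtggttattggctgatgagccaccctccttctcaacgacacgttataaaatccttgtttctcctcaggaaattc
Cyp1a2, chr9:57683656-57683905, minus strand: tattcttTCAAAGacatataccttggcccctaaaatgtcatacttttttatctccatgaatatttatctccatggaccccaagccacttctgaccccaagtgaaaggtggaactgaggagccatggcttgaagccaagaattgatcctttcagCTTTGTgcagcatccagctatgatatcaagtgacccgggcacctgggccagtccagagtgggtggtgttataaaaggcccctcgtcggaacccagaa
The Slc1a2 window lies before a start inside the gene, which spans 102658239 to 102790784 on chromosome 2, with matches 77 and 206 bases before that start. The Cyp2e1 match lies 135 bases before the start, and those of Cyp1a2 lie 243 bases (CTTTGA, other strand) and 97 bases (CTTTGT) before it. A match describes letters in these windows, and binding was not measured. The other members lie on chromosome 1 (Glul, 153899929 to 153909723), chromosome 7 (Oat, 132557475 to 132576398), chromosome 11 (Axin2, 108917828 to 108950783), chromosome 10 (Lgr5, 115450314 to 115587780), chromosome 3 (Rhbg, 88242874 to 88254739) and chromosome 5 (Tbx3, 119670534 to 119684724) of GRCm38.

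Slc1a2, the glutamate transporter gene, was lower in KO than in both other genotypes. Its lowest, median and highest values were 6.85, 13.8 and 28.2 FPKM in Liver-RE, 5.08, 9.79 and 15.9 FPKM in KO and 7.76, 16.5 and 28.3 FPKM in WT (18 libraries each). The genotypes overlapped over the day as a whole, but at ZT8, 12, 16 and 20 every KO library lay below every WT library, and at ZT4, 8 and 20 every Liver-RE library lay above every KO library. How often the libraries of any gene separate in this way was not counted over all genes. Such separations, here and below, describe the values only. At ZT8 Slc1a2 averaged 18.02 ± 3.48 FPKM in Liver-RE, 9.38 ± 1.60 FPKM in KO and 22.0 ± 6.87 FPKM in WT, and at ZT12 it averaged 12.1 ± 2.76 FPKM in Liver-RE, 9.39 ± 1.01 FPKM in KO and 21.5 ± 4.08 FPKM in WT (SD, n = 3 each). The level over the day is the genotype mean of log2(FPKM + 1) in 1 limma fit over all 54 libraries, with p-values adjusted over the 11759 genes tested, and fold changes on this scale understate those of low genes. Slc1a2 was higher in Liver-RE than in KO, log2 fold change 0.57 ± 0.132 (SE), limma adjusted p = 0.000729, and lower in KO than in WT, -0.68 ± 0.132 (SE), limma adjusted p = 6.46e-05. Between Liver-RE and WT the difference was -0.11 ± 0.132 (SE), limma adjusted p = 0.629.

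**Figure D1:**
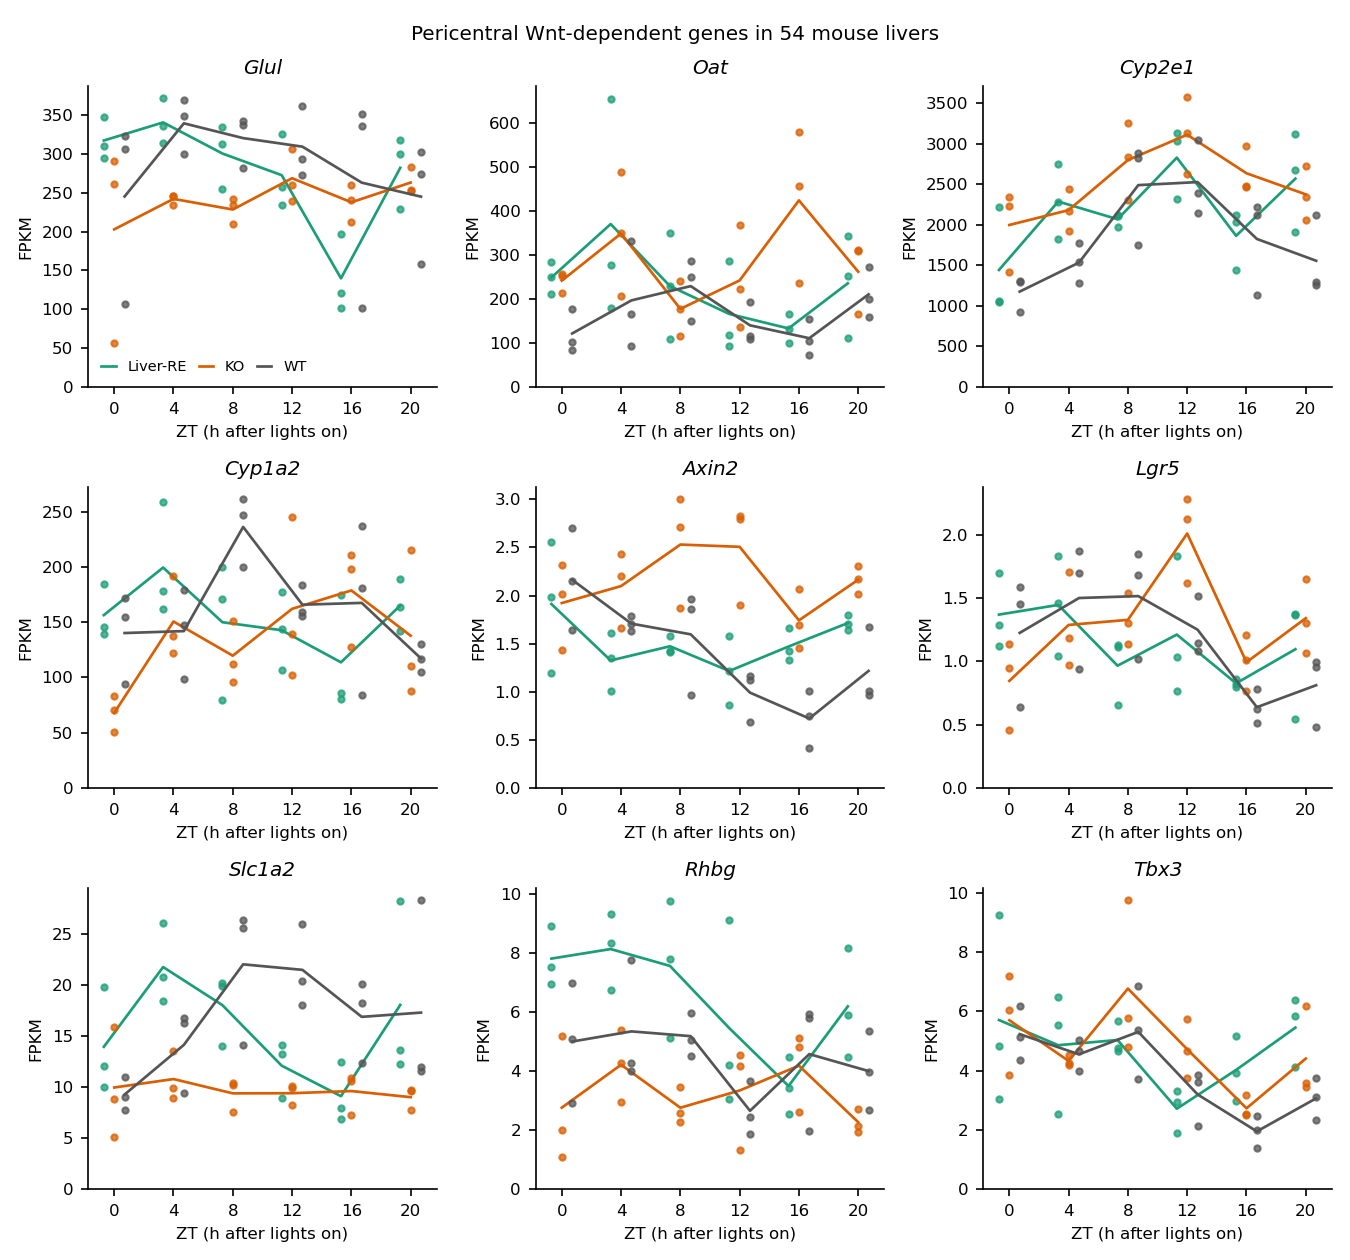
FPKM of the 9 genes (y axis) by harvest time in hours after lights on (x axis); points are libraries, offset within a time as Liver-RE (left), KO (middle) and WT (right), and lines join the means of 3 libraries. Slc1a2 stayed between 9.0 and 10.8 FPKM in the KO means, and Axin2 was lowest in WT at ZT16, 0.723 FPKM.

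Axin2, the beta-catenin feedback target, was higher in KO than in both other genotypes. Its lowest, median and highest values were 0.859, 1.5 and 2.55 FPKM in Liver-RE, 1.44, 2.12 and 3.00 FPKM in KO and 0.414, 1.4 and 2.70 FPKM in WT. Every KO library lay above every WT library at ZT12, 16 and 20, and every Liver-RE library lay below every KO library at ZT4, 8, 12 and 20. At ZT16, where WT was lowest, Axin2 averaged 1.47 ± 0.171 FPKM in Liver-RE, 1.74 ± 0.310 FPKM in KO and 0.723 ± 0.297 FPKM in WT (SD, n = 3 each). At ZT0 the genotypes were close, at 1.91 ± 0.682 FPKM in Liver-RE, 1.92 ± 0.448 FPKM in KO and 2.16 ± 0.529 FPKM in WT. Over the day Axin2 was lower in Liver-RE than in KO by limma, log2 fold change -0.33 ± 0.0694 (SE), adjusted p = 0.000229, and higher in KO than in WT, 0.42 ± 0.0694 (SE), adjusted p = 3.24e-06. The difference between Liver-RE and WT was 0.10 ± 0.0694 (SE), limma adjusted p = 0.388.

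Rhbg, the ammonia transporter gene, was higher in Liver-RE than in KO. Its lowest, median and highest values were 2.55, 6.85 and 9.77 FPKM in Liver-RE, 1.09, 2.84 and 5.39 FPKM in KO and 1.86, 4.40 and 7.75 FPKM in WT. Every Liver-RE library lay above every KO library at ZT0, 4, 8 and 20, and no time separated Liver-RE from WT. At ZT16 the mean was lower in Liver-RE, 3.49 ± 0.971 FPKM, than in KO, 4.18 ± 1.37 FPKM (SD, n = 3 each), with overlapping libraries. The level in Liver-RE exceeded that in KO by limma, log2 fold change 0.81 ± 0.146 (SE), adjusted p = 2.22e-05. Both other differences lay next to the threshold of 0.05: 0.44 ± 0.146 (SE) between Liver-RE and WT, limma adjusted p = 0.0544, and -0.37 ± 0.146 (SE) between KO and WT, limma adjusted p = 0.0508. Several other settings and the loss of single libraries put each of these below 0.05, as given with the processing.

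Oat and Cyp2e1 were higher in KO than in WT. Oat, the ornithine aminotransferase, had lowest, median and highest values of 92.2, 219.6 and 654 FPKM in Liver-RE, 115, 247 and 578 FPKM in KO and 72.7, 157 and 332 FPKM in WT. The KO libraries lay above all WT libraries at ZT0 and ZT16, and at ZT16 Oat averaged 133 ± 33.2 FPKM in Liver-RE, 424 ± 173 FPKM in KO and 111 ± 41.4 FPKM in WT (SD, n = 3 each). Its mean was higher in KO than in WT at 5 of the 6 times. At ZT8 it was lower, 177 ± 62.8 FPKM in KO and 229 ± 70.2 FPKM in WT (SD, n = 3 each). KO exceeded WT by limma, log2 fold change 0.75 ± 0.209 (SE), adjusted p = 0.00454, while Liver-RE differed from KO by -0.36 ± 0.209 (SE), limma adjusted p = 0.176, and from WT by 0.39 ± 0.209 (SE), limma adjusted p = 0.239. Cyp2e1, the most abundant of the 9 RNAs, had lowest, median and highest values of 1044, 2118 and 3125 FPKM in Liver-RE, 1416, 2453 and 3576 FPKM in KO and 926, 1764 and 3040 FPKM in WT. Its mean was higher in KO than in WT at all 6 times, with no overlap of libraries at ZT0, 4 and 16. KO exceeded WT by limma, log2 fold change 0.50 ± 0.116 (SE), adjusted p = 0.000779. Cyp2e1 in Liver-RE differed from KO by -0.24 ± 0.116 (SE), limma adjusted p = 0.10, and this passed without the 3 libraries low in Glul (adjusted p = 0.0439), without the 2 out-of-phase libraries (0.0441) and without Liver-RE replicate 1 at ZT20 alone (0.0452). Both sets were chosen after seeing the data, so the lower p-values without them are not separate support for a difference.

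Glul, Cyp1a2, Lgr5 and Tbx3 passed in no level comparison with all libraries. Glul, the glutamine synthetase gene, had lowest, median and highest values of 102, 305 and 372 FPKM in Liver-RE, 56.3, 246 and 306 FPKM in KO and 102, 304 and 369 FPKM in WT. Its libraries in KO lay below all of WT at ZT4 and ZT8, while those in Liver-RE lay above all of KO at ZT0, 4 and 8 and below all of KO at ZT16. KO differed from WT by a log2 fold change of -0.23 ± 0.159 (SE), limma adjusted p = 0.279. Without the 3 libraries low in Glul it was -0.27 ± 0.0989 (SE), limma adjusted p = 0.0335. These libraries were chosen on Glul itself, which lowers its spread, so the second p is not separate support for a difference. Cyp1a2, which the aryl hydrocarbon receptor also drives, averaged 155 ± 45.7 FPKM in Liver-RE, 136 ± 55.3 FPKM in KO and 161 ± 52.4 FPKM in WT (SD, n = 18 each). Lgr5, the R-spondin receptor gene, averaged 1.15 ± 0.387 FPKM in Liver-RE, 1.3 ± 0.456 FPKM in KO and 1.16 ± 0.464 FPKM in WT (SD, n = 18 each). Tbx3 averaged 4.63 ± 1.78 FPKM in Liver-RE, 4.78 ± 1.79 FPKM in KO and 3.89 ± 1.5 FPKM in WT (SD, n = 18 each). Between KO and WT these differed by -0.29 ± 0.153 for Cyp1a2, 0.10 ± 0.0801 for Lgr5 and 0.25 ± 0.120 for Tbx3 (log2 fold change ± SE), with limma adjusted p of 0.155, 0.369 and 0.106. Between Liver-RE and KO the log2 fold changes of Glul, Cyp1a2, Lgr5 and Tbx3 were 0.19, 0.23, -0.09 and -0.04, and between Liver-RE and WT -0.05, -0.06, 0.0076 and 0.21, with limma adjusted p of 0.243 or more. The ranges of all 4 genes overlapped across the genotypes.

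In all, Liver-RE against KO gave 2 higher and 1 lower of the 9 genes, in a comparison that called 34.1% of all genes tested (7.42% higher and 26.7% lower). Liver-RE against WT called 0 of 9 by limma, where 7.06% of all genes were called (1.18% higher and 5.88% lower). At an unadjusted p under 0.05 it had 2 of 9, Cyp2e1 and Rhbg, and 25.0% of all genes. KO against WT gave 3 higher and 1 lower, where 30.0% were called (16.5% higher and 13.5% lower). In both comparisons with KO the share of the 9 genes called was thus near that of all genes, and between Liver-RE and WT a share of 7.06% amounts to less than 1 gene in 9. The median log2 fold changes of the 9 genes were -0.04, 0.10 and 0.10 in these comparisons, beside -0.07, -0.06 and 0.02 over all genes tested. The comparisons share libraries, so their values are not independent of each other. The balance over all genes depended on the scaling: 873 higher and 3134 lower between Liver-RE and KO became 1455 and 1647 with quantile normalization, and 139 higher and 691 lower between Liver-RE and WT became 243 and 269. With the 20 highest genes left out of the scaling the splits were 1251 higher and 1635 lower between Liver-RE and KO, and 187 and 292 between Liver-RE and WT. Between KO and WT 1940 higher and 1592 lower became 1983 and 2008 with quantile normalization and 1658 and 1978 with the 20 highest left out.

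**Figure D2:**
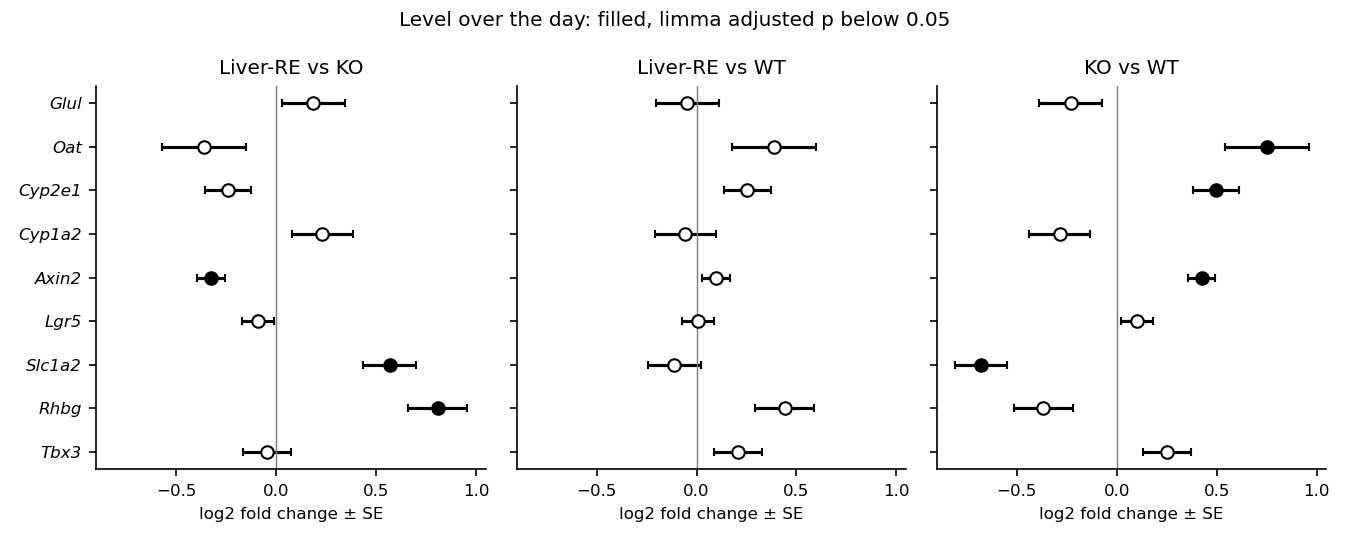
Log2 fold change with its SE (x axis) for the 9 genes in Liver-RE against KO, Liver-RE against WT and KO against WT; filled points have a limma adjusted p below 0.05. Slc1a2 and Rhbg lie to the right in Liver-RE against KO, and Oat, Cyp2e1 and Axin2 to the right in KO against WT.

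Markers of several other cell types also differed between the genotypes. Beside the counts below, 16.5% of all genes were higher and 13.5% lower in KO than in WT. The shares were 7.42% higher and 26.7% lower for Liver-RE against KO, and 1.18% and 5.88% for Liver-RE against WT. Of the 6 central vein endothelial markers (Wnt2, Wnt9b, Rspo3, Thbd, Cdh13 and Kit), 5 were tested and 0 passed in any level comparison by limma, and their sum ranged over 5.17 to 13.6 FPKM in Liver-RE, 4.68 to 14.5 FPKM in KO and 5.33 to 15.5 FPKM in WT. Of 8 Kupffer cell markers 7 were lower in KO than in WT, with sums of 153 to 376 FPKM in Liver-RE, 153 to 344 FPKM in KO and 253 to 365 FPKM in WT. Both tested cholangiocyte markers, Sox9 and Spp1, were higher in KO, with sums over 6 markers of 8.84 to 21.9 FPKM in Liver-RE, 14.7 to 76.5 FPKM in KO and 12.3 to 40.2 FPKM in WT. Of 7 hepatocyte markers 1, Alb, was lower in KO than in WT, with sums of 35577 to 72647 FPKM in Liver-RE, 26891 to 49396 FPKM in KO and 46151 to 65546 FPKM in WT. In Liver-RE against KO both cholangiocyte markers were lower, as were 4 of 7 hepatocyte markers with 1 higher, and in Liver-RE against WT 4 of 8 Kupffer cell markers were lower. No marker was at 0 in every library. The part of these shifts in the levels of the 9 genes was not tested.

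Over the day in WT 5 of the 9 genes cycled, in a test of a 24 h cosine that called 23.5% of all genes. Axin2 swung 1.72-fold between the peak and trough of its cosine, with the peak at ZT2.72, limma adjusted p = 0.000189. Cyp2e1 swung 2.10-fold and peaked at ZT10.99, limma adjusted p = 0.00249. Tbx3 swung 2.03-fold with a peak at ZT4.07, and Lgr5 1.53-fold with a peak at ZT5.91, with limma adjusted p of 0.00522 and 0.0126. Slc1a2 swung 1.96-fold with a peak at ZT11.67, limma adjusted p = 0.0172, and 0.0579 without WT replicate 1 at ZT0. The fitted peaks of Axin2, Tbx3 and Lgr5 thus came earlier in the day than those of Cyp2e1 and Slc1a2. Glul, Oat, Cyp1a2 and Rhbg did not pass, with swings of 1.56-, 1.38-, 1.69- and 1.45-fold and limma adjusted p of 0.269, 0.663, 0.145 and 0.331.

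The WT course of Axin2 shows the size of the swing. Its means at ZT0, 4, 8, 12, 16 and 20 were 1.91, 1.33, 1.47, 1.22, 1.47 and 1.71 FPKM in Liver-RE, 1.92, 2.10, 2.53, 2.51, 1.74 and 2.16 FPKM in KO and 2.16, 1.71, 1.60, 0.992, 0.723 and 1.22 FPKM in WT. In WT, 3 libraries at ZT0 lay between 1.64 and 2.70 FPKM and 3 at ZT16 between 0.414 and 1.01 FPKM, without overlap. The daily course of Axin2 differed between KO and WT, limma adjusted p = 0.0164, in a test of amplitude and phase together that called 1 of the 9 genes and 7.78% of all genes. Of the other genes that cycled in WT, Slc1a2, Lgr5, Cyp2e1 and Tbx3 had limma adjusted p of 0.185, 0.127, 0.517 and 0.608 in that test. The Axin2 call was lost with an F test between the 6 times (adjusted p = 0.0719) and without the 3 libraries low in Glul (0.0531). Between Liver-RE and WT the course of Axin2 had a limma adjusted p of 0.0638, and of 0.0354 without the 2 out-of-phase libraries. Those 2 were chosen after seeing the data, by their clock genes, so the second p is not separate support for a difference.

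In KO 0 of 9 genes and 0 of all 11759 genes passed the rhythm test by limma, with 4 of the 9 and 1105 (9.4%) of all genes at an unadjusted p under 0.05 (background 0%). The 4 were Cyp2e1, Cyp1a2, Lgr5 and Tbx3, with fitted swings of 1.53-, 1.8-, 1.34- and 1.53-fold. The fitted peak-to-trough fold of Slc1a2 in KO was 1.08, limma adjusted p = 0.98, the smallest of the 9 there. In Liver-RE 0 of 9 passed by limma, where 3.82% of all genes did. At an unadjusted p under 0.05 were 4 of the 9, Oat, Glul, Rhbg and Slc1a2, and 21.1% of all genes. Their fitted swings were 2.27-, 2.00-, 1.96- and 1.84-fold, with peaks at ZT2.48, 3.71, 3.30 and 3.78 and limma adjusted p of 0.171, 0.117, 0.0897 and 0.0913. Some of these passed when libraries were left out: Glul without the 3 libraries low in Glul (adjusted p = 0.0031) or without KO replicate 1 at ZT0 alone (0.0416), Slc1a2 without the 2 out-of-phase libraries (0.0214) or without Liver-RE replicate 1 at ZT20 alone (0.0243), and Rhbg without Liver-RE replicate 1 at ZT12 (0.0442). The libraries left out for Glul were chosen for low Glul and are KO and WT libraries. The fitted Glul swing in Liver-RE stayed at 2.00-fold without them, so the lower p is not separate support for a rhythm. The 2 out-of-phase libraries were chosen after seeing the data, for clock genes apart from their group, and Liver-RE replicate 1 at ZT20 is 1 of them. The lower p of Slc1a2 without them is therefore not separate support for a rhythm either.

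Slc1a2 was the only one of the 9 genes whose daily course passed the test between Liver-RE and WT with all libraries. Its means at ZT0, 4, 8, 12, 16 and 20 were 13.9, 21.7, 18.02, 12.1, 9.10 and 18.04 FPKM in Liver-RE, 9.95, 10.8, 9.38, 9.39, 9.60 and 9.0 FPKM in KO and 9.26, 14.1, 22.0, 21.5, 16.9 and 17.3 FPKM in WT. At ZT4 the Liver-RE libraries had 18.4, 20.8 and 26.0 FPKM, all above the WT libraries with 9.38, 16.7 and 16.2 FPKM. At ZT12 they had 14.1, 8.94 and 13.2 FPKM, all below the WT libraries with 18.05, 20.4 and 26.0 FPKM. At ZT20 the out-of-phase Liver-RE replicate 1 had 28.2 FPKM, against 12.3 and 13.6 FPKM in the other libraries of its group. The fitted peak lay at ZT3.78 in Liver-RE and at ZT11.67 in WT, and the test of the difference passed by limma, adjusted p = 0.0233, 1 of 9 genes where 3.51% of all genes were called. This test takes amplitude and phase together, and is not a test of the peak time. The rhythm of Slc1a2 in Liver-RE did not pass by itself, limma adjusted p = 0.0913. With an F test between the 6 times the adjusted p was 0.125. Between Liver-RE and KO the rhythm difference called 0 of 9 by limma, where 0.238% of all genes were called, with 5 of the 9 and 12.4% of all genes at an unadjusted p under 0.05.

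Glul in Liver-RE was low at ZT16. Its libraries had 197, 121 and 102 FPKM at that time, against a lowest value of 229 FPKM at the other times. At ZT16 the KO libraries had 213, 260 and 241 FPKM and the WT libraries 102, 336 and 351 FPKM. All Liver-RE libraries therefore lay below all KO libraries at that time, while they overlapped with WT through WT replicate 1, which is among the libraries low in Glul. Ordered by level, the 18 groups of genotype and time ran between 340 ± 28.8 FPKM (Liver-RE at ZT4) and 140 ± 50.3 FPKM (Liver-RE at ZT16) for Glul (SD, n = 3 each). No 2 neighbours in that order were further apart than their spread, and the same held for all of the 9 genes but Lgr5, where KO at ZT12 stood above WT at ZT8, and Tbx3, where Liver-RE at ZT12 stood above WT at ZT16. The highest group exceeded the lowest by between 2.43-fold (Glul) and 3.82-fold (Oat).

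The 9 genes also varied together between mice of the same genotype and time. The SD of log2(FPKM + 1) within groups was 0.63 for Oat and 0.49 for Glul, larger than for 98.5% and 96.8% of all genes tested, and 0.21 for Axin2, larger than for 66.0%. Deviations from the group mean correlated positively in 36 of 36 pairs of the 9 genes over 54 libraries, with a median Pearson r of 0.35, where the median over all gene pairs was 0.092 and 63.5% of them were above 0. The highest were 0.69 between Cyp2e1 and Slc1a2, 0.65 between Axin2 and Tbx3 and 0.59 between Oat and Rhbg. The values of a library share its depth and scaling, and no p is given. The correlations were weaker without the 3 libraries low in Glul, when 28 of 36 pairs were above 0 and the median r was 0.19. In those 3 libraries, chosen for low Glul, 7, 7 and 8 of the other 8 genes lay below their group mean.

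Glul deviations went with those of central vein endothelial genes. Pearson r with Glul was 0.75 for Wnt2, a Wnt ligand, 0.75 for Cdh13 (T-cadherin), 0.69 for Kit, 0.63 for Rspo3 (R-spondin 3) and 0.52 for Thbd (thrombomodulin), against 0.40 for Stab2, a gene of liver sinusoidal endothelium, and 0.09 for the general endothelial gene Pecam1 (54 libraries). Without the 3 libraries low in Glul the values were 0.67 for Wnt2, 0.64 for Cdh13, 0.57 for Kit and 0.55 for Thbd, with 0.09 for Rspo3, 0.29 for Stab2 and 0.18 for Pecam1 (51 libraries). Wnt2 was below its group mean by a log2 difference of -0.85, -0.39 and -0.62 in the 3 libraries, KO at ZT0, WT at ZT0 and WT at ZT16. Gls2, the periportal glutaminase gene, had r = -0.45 with Glul and 0.70 with Oat over 54 libraries, and -0.26 and 0.77 without the 3. Cyp2f2, a periportal P450 gene, had r = 0.38 with Glul and 0.20 with Oat over 54 libraries, and 0.054 and 0.24 without the 3. Oat had r = 0.14 with Wnt2 over 54 libraries. What these deviations reflect was not tested.

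**Figure D3:**
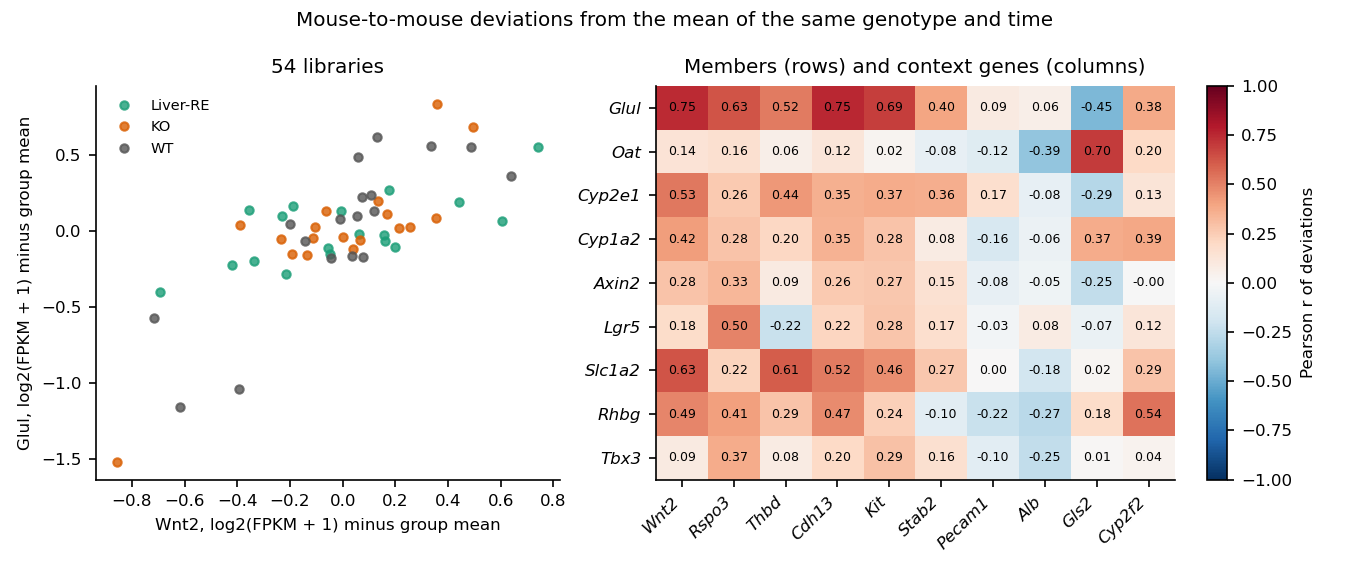
Left, each library's Glul deviation from the mean of its genotype and time (y axis, log2) against its Wnt2 deviation (x axis, log2), with 3 libraries below -1 in Glul; right, Pearson r of such deviations over 54 libraries for the 9 genes (rows) and genes of endothelial cells and hepatocytes (columns). Glul has the strongest r with Wnt2 and Cdh13, 0.75 each, and Oat with Gls2, 0.70.

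Other genes of the Wnt pathway were compared between KO and WT by role, beside 30.0% of all genes called (16.5% higher and 13.5% lower). Of 12 ligand genes and their processing factors 5 were tested, and 0 rose and 3 fell in KO, with a median log2 fold change of -0.16 beside 0.02 over all genes. Those that fell were Wnt5b, -0.45 ± 0.102, Porcn, the acyltransferase that lipidates Wnts, -0.29 ± 0.0428, and Wls, their carrier, -0.16 ± 0.0469 (SE), with limma adjusted p of 0.000542, 3.99e-07 and 0.00885. Wnt2 and Rspo3 differed by 0.21 and 0.13 and did not pass. Of 9 receptor genes tested 1 rose, the coreceptor gene Lrp5, 0.55 ± 0.0724 (SE), limma adjusted p = 3.38e-08, and 3 fell: Lgr4, Lrp6 and Fzd1, with log2 fold changes of -0.23, -0.17 and -0.13. Of 14 signal transducers 1 rose, Dvl2, and 3 fell, Tcf7, Apc and Ctnnb1, the gene of beta-catenin, which fell by 0.16 on the log2 scale, limma adjusted p = 0.0346. Of 8 inhibitors and feedback targets 1 rose, Dkk3, and 3 fell: Ccnd1, the cyclin D1 gene, -1.25 ± 0.222, the Troy receptor gene Tnfrsf19, -0.48 ± 0.0997, and Notum, the gene of a secreted Wnt deacylase, -0.27 ± 0.0748 (SE). Ccnd1, Tnfrsf19 and Notum, which beta-catenin drives in some tissues, thus moved over the day in the direction opposite to Axin2. Of the 8 genes 4 did not pass, Rnf43 among them, and the median log2 fold change of the 8 was -0.0072. At ZT20 Ccnd1 averaged 10.5 FPKM in KO and 7.32 FPKM in WT, and Tnfrsf19 1.01 and 0.680 FPKM. Both had lower means in KO than in WT at all other times.

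In Liver-RE against KO 1 of 5 ligands was higher and 0 lower, and 1 of 9 receptors was higher and 1 lower. Of 14 transducers 0 were higher and 4 lower, and of 8 inhibitors and feedback targets 2 were higher and 1 lower. Over all genes 7.42% were higher and 26.7% lower. Among the genes called, Ccnd1 and Tnfrsf19 were higher, log2 fold changes 0.85 ± 0.222 and 0.76 ± 0.0997 (SE), with limma adjusted p of 0.00263 and 3.38e-08. Lrp5 was lower, -0.52 ± 0.0724 (SE), limma adjusted p = 1.39e-07. Notum differed by -0.0092 between Liver-RE and KO, limma adjusted p = 0.935, and was lower in Liver-RE than in WT, -0.28 ± 0.0748 (SE), limma adjusted p = 0.0173. Tnfrsf19 averaged 2.27 ± 0.133 FPKM in Liver-RE, 0.829 ± 0.242 FPKM in KO and 1.66 ± 0.227 FPKM in WT at ZT4 (SD, n = 3 each). Lrp5 cycled in WT 2.14-fold with a peak at ZT0.67 and in Liver-RE 1.70-fold with a peak at ZT21.45, limma adjusted p of 1.01e-06 and 0.00271. Its means in KO lay between 16.2 and 16.6 FPKM at all 6 times. In the rhythm test in WT 1 of 5 ligands, 2 of 9 receptors, 2 of 14 transducers and 5 of 8 inhibitors and feedback targets passed, beside 23.5% of all genes: Rspo3, Fzd4, Lrp5, Apc, Tcf7, Znrf3, Rnf43, Notum, Tnfrsf19 and Ccnd1.

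**Figure D4:**
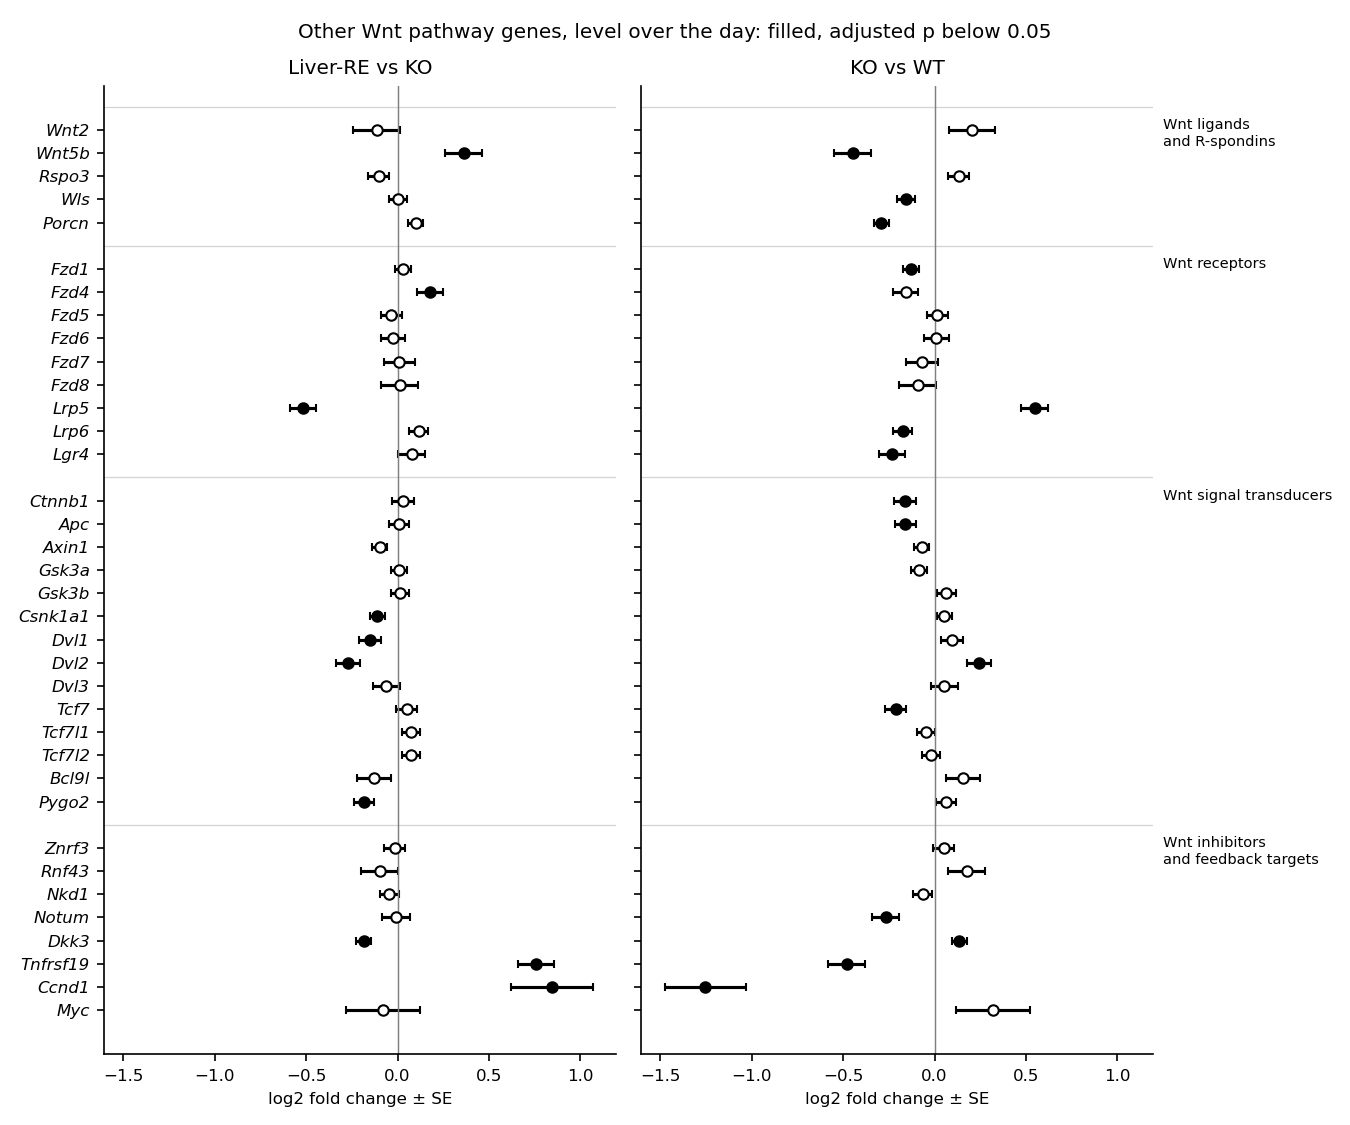
Log2 fold change with its SE (x axis) for the other Wnt pathway genes tested, by role, in Liver-RE against KO (left) and KO against WT (right); filled points have a limma adjusted p below 0.05. Ccnd1, Tnfrsf19 and Wnt5b lie to the left in KO against WT and to the right in Liver-RE against KO, and Lrp5 does the reverse. Of 14 transducers 3 were lower in KO against WT and 4 lower in Liver-RE against KO.

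Of 17 other pericentral genes, all tested, 3 were higher and 9 lower in Liver-RE than in KO, 3 higher and 0 lower in Liver-RE than in WT, and 11 higher and 2 lower in KO than in WT. The background shares for these counts, and for the lists that follow, were 7.42% higher with 26.7% lower for Liver-RE against KO, 1.18% with 5.88% for Liver-RE against WT and 16.5% with 13.5% for KO against WT. Those with the smallest p-values between KO and WT were Cyp2a5, a coumarin hydroxylase gene, with -2.72 ± 0.220, and Gstm3, a glutathione transferase gene, with 2.36 ± 0.197 (SE), Cyp2c29 with 0.95 and Por, the P450 reductase gene, with -0.99. The median was 0.35 between KO and WT, beside 0.10 for the 9 genes and 0.02 for all genes. Of 17 periportal genes 2 were higher and 5 lower in KO than in WT, with a median of -0.15, and among them Aldh1b1 differed by -0.89 and Asl, a urea cycle gene, by -0.78. Of 10 tested genes of glutamate and glutamine handling 2 were higher in KO than in WT, Slc1a4 with 0.72 and Glud1 with 0.34, and 2 were lower, Slc38a3 with -0.67 and Slc1a5 with -0.16. Of 5 tested genes of the aryl hydrocarbon receptor pathway, which drives Cyp1a2, 2 were higher and 0 lower in KO, Ahr with 0.22 and Ugt1a6a with 0.28. Of the remaining cell lists, stellate markers were 0 higher and 4 lower of 9 in KO against WT, liver endothelial markers 1 higher and 1 lower of 11, and the only tested lymphocyte and blood markers, Ptprc and Alas2, were lower and higher. No adipocyte marker reached the filter.

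The genes whose levels over the 18 group means were most like each of the 9 were sought among 10076 genes by Pearson r. For Slc1a2 they were the clock target Ciart, r = 0.91, and Snx10, 0.90. For Axin2 they were Elp4, 0.92, and Spata22, 0.90, for Oat Lhpp, 0.90, and Atg7, 0.82, and for Cyp2e1 Upb1, 0.86, and Dpys, 0.85, both of pyrimidine breakdown. For Cyp1a2 they were Snx9, 0.88, and Slc26a1, 0.84, for Rhbg Them7 and Gstt3, 0.84 each, and for Tbx3 Slc25a42, 0.85, and Serpinb9, 0.83. For Lgr5 they were Nup37, 0.85, and Qrsl1, 0.84, and for Glul Timd2, 0.83, and Smim20, 0.82. Over the deviations of the 54 libraries the most alike were other genes in most cases: for Glul Nxpe2, 0.90, for Lgr5 Tnfrsf19, 0.68, and for Axin2 Tbx3, 0.65.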

How the data were processed

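Ribosomal RNA was removed from total RNA of 54 mouse livers before stranded libraries were made and read from a single end, per the labels' protocols. What the authors deposited is 1 table without a named unit. It was read as FPKM that the authors had computed, since low values shared common steps once multiplied by transcript length (5.52% of them at the most frequent step, against 1.17% without). TPM with genes removed cannot be told apart from this. CASAVA 1.8.2 and mm10 appear in the submitters' processing notes, with aligner, counting tool and annotation not given in the sources used here. Depth, from these steps in 3223 genes with a single transcript, was 25.0 to 42.0 M reads (mega reads). No count test and no counting interval were possible.

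The scale tested was log2(FPKM + 1), a pseudocount of 1. Genes needed a mean of 0.5 or more, which 11759 had and 6320 did not. Each genotype had its own mean and 24 h cosine and sine in limma 3.58.1 under R 4.3.3, with trended empirical Bayes. Level contrasts, an F test of each rhythm and an F test of each rhythm difference were adjusted by the Benjamini-Hochberg method across those genes, at a threshold of 0.05. The labels call libraries replicates and the design gives 3 mice per group, so p-values measure the spread between these mice. Other settings were a replicate block, a pseudocount of 0.1, all genes unfiltered, quantile normalization, the 20 highest genes left out, group means, robust empirical Bayes, fits of the genotypes concerned, an F test between the 6 times, and each library left out. After seeing the data, the 3 libraries low in Glul and the 2 out-of-phase libraries were also left out. The functions were tested on simulated data. The 9 genes and all lists were chosen with earlier results of these data known. Named were the 9 genes, up to 4 list members per contrast with the smallest p-values, members of small counts, and 2 genes most like each of the 9 (mean of at least 1; predicted genes and pseudogenes left out). Python 3.11.15, pandas 2.3.3, numpy 2.4.6 and matplotlib 3.10.9 were used for tables and figures. Promoters and positions are RefSeq's, on GRCm38.p6.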

Additional observations from a re-analysis of the deposited data

Results flagged for a closer look

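Differences between genotypes in the daily course were sought by limma's test of the rhythm difference over all genes. It called 2 of the 9 genes and 3 other Wnt pathway genes. Between KO and WT 1 of 9 receptors and 2 of 14 transducers were called, with 0 of 5 ligands and 0 of 8 inhibitors and feedback targets. Between Liver-RE and WT 1 of 9 receptors was the only call in these lists. The share of all genes called was 7.78% between KO and WT and 3.51% between Liver-RE and WT. Slc1a2 had its fitted peak at ZT3.78 in Liver-RE and at ZT11.67 in WT, adjusted p = 0.0233 for amplitude and phase together. Its rhythm in Liver-RE did not pass by itself, limma adjusted p = 0.0913. Axin2 had a fitted swing of 1.19-fold with a peak at ZT8.80 in KO and of 1.72-fold with a peak at ZT2.72 in WT, adjusted p = 0.0164 for amplitude and phase together. Both calls were lost with limma's F test between the 6 times, with adjusted p of 0.125 for Slc1a2 and 0.0719 for Axin2. Lrp5, a Wnt coreceptor gene, had fitted swings of 1.70-fold in Liver-RE, 1.017-fold in KO and 2.14-fold in WT, with adjusted p of 0.0357 for Liver-RE against WT and 0.00144 for KO against WT. Lrp5 means were 8.06 ± 0.853 FPKM in Liver-RE, 16.5 ± 2.09 FPKM in KO and 5.90 ± 0.402 FPKM in WT at ZT12, and 14.7 ± 0.481 FPKM in Liver-RE, 16.5 ± 3.43 FPKM in KO and 14.9 ± 1.36 FPKM in WT at ZT0 (SD, n = 3 each). Apc, a scaffold of the beta-catenin destruction complex, had an adjusted p of 0.0279 between KO and WT, and Csnk1a1, a kinase of that complex, 0.0495, both in the same limma test.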

How the results depend on the processing

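The level calls of Slc1a2, Axin2 and Rhbg between Liver-RE and KO, and of Oat, Cyp2e1, Axin2 and Slc1a2 between KO and WT, held in every alternative run. Of the 5 rhythms in WT only that of Slc1a2 lost its call, without WT replicate 1 at ZT0, the other 4 holding in every alternative. Between Liver-RE and WT the count of the 9 genes was 0, and 1 (Rhbg) with quantile normalization, the 20 highest genes left out, group means and only the genotypes concerned; without 1 library it was 0 to 1. Rhbg had a limma adjusted p of 0.0426, 0.0399, 0.0485 and 0.0394 there, and between KO and WT of 0.0478 (pseudocount 0.1), 0.0413 (quantile), 0.0315 (20 highest left out), 0.0474 (group means) and 0.036 (3 libraries low in Glul left out). It also passed without any 1 of 13 libraries between Liver-RE and WT and of 18 between KO and WT. Rhythms in Liver-RE numbered 0, 1 without the 3 libraries low in Glul, 1 without the 2 out-of-phase libraries, and 0 to 1 without 1 library. Rhythm differences between Liver-RE and WT numbered 1, 2 (with Axin2) with a pseudocount of 0.1, the 20 highest genes left out or the 2 out-of-phase libraries left out, 0 with the F test between the 6 times, and 1 to 2 without 1 library (Axin2 passed without Liver-RE replicate 3 at ZT0 or replicate 1 at ZT12, or WT replicate 2 at ZT8 or ZT20). Those between KO and WT numbered 1, and 0 with that F test or without the 3 libraries low in Glul. Directions that turned were all of small differences that passed in no setting. Tbx3 between Liver-RE and KO, -0.04, was 0.034 with quantile normalization, 0.019 with the 20 highest left out, and -0.087 to 0.0075 without 1 library. Between Liver-RE and WT, Glul, -0.05, was 0.00041 with the 20 highest left out and -0.13 to 0.012 without 1 library, Cyp1a2, -0.06, was -0.11 to 0.0065, and Lgr5, 0.0076, was -0.028 to 0.037 without 1 library and -0.031 without the 3 libraries low in Glul. The cause of these changes was not tested. Over all genes, calls between Liver-RE and WT numbered 830, 512 with quantile normalization and 479 with the 20 highest left out. Rhythms in Liver-RE numbered 449, 721 with quantile normalization and 191 with only the genotypes concerned. Rhythms in KO numbered 0, and 6 with the F test between times. Rhythm differences between Liver-RE and KO numbered 28 and ranged from 4 to 65, and those between KO and WT numbered 915, and 538 with the F test. Axin2, Lgr5, Rhbg and Tbx3 lie at a few FPKM, where steps of single reads limit precision.

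With the replicate number as a block, the rhythm differences between Liver-RE and WT numbered 2 of the 9 genes, with Axin2 at a limma adjusted p of 0.0385, and no other count of the 9 genes changed. The numbers were not taken to pair the libraries, and whether they do was not settled. Not every same-numbered pair correlated above 0.1, but a real pairing could also fail that rule. Deviations of same-numbered libraries had a mean r of 0.0397 over 459 pairs (lowest -0.402), against -0.0201 over 918 pairs of different numbers. As a hint from the data only, 29 of 54 libraries had a higher mean r with libraries of their own number than with those of either other number.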
